A study of Rattus norvegicus with 6 samples.

Results

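The genes described are 10 that encode the DNA methylation machinery and the core of Polycomb repressive complex 2 (PRC2): Uhrf1, Uhrf2, Dnmt1, Dnmt3a, Dnmt3b, Hells, Ezh2, Ezh1, Suz12 and Eed. They were chosen by symbol, as probe sets that the platform annotation pairs with a single gene. All 10 were measured, among 14217 genes, by 14 of 31042 probe sets. Expression was read on Affymetrix rat arrays. All samples were of NRK-52E, an established epithelial cell line from the tubules of a normal rat kidney. The cells of 3 arrays had been transduced with a lentiviral hairpin directed at AMPKα2 (shAMPKα2). AMPKα2 is 1 of the 2 catalytic subunits of AMP-activated protein kinase, which senses cellular energy. The cells of the other 3 arrays carried a control lentivirus (shCtrl). All 6 cultures had TGF-β1 at 10 ng/mL for 24 h, a cytokine that drives epithelial cells towards a mesenchymal state, so the control cells were treated as well. The comparison asks how transcripts differ once AMPKα2 is targeted in such cells. The labels call the 3 arrays of a group biological replicates and do not say whether the transduced cells were clones or pools.

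DNA methylation is a mark on cytosine that is copied to the new strand after each round of replication. UHRF1 binds the half-methylated site left by replication and recruits the maintenance methyltransferase DNMT1, while HELLS is a chromatin remodeller needed to methylate compact chromatin. DNMT3A and DNMT3B set methylation at new sites. PRC2 places methyl groups on lysine 27 of histone H3, a mark of silenced developmental genes. Its catalytic subunit is EZH2 or EZH1, its scaffold is SUZ12, and EED binds the mark and stimulates the enzyme. UHRF1, DNMT1, HELLS and EZH2 are known as proteins of dividing cells, whereas EZH1 is known from resting cells.

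The deposited log2 values differed between the groups in shape as well as in single genes. The SD over probe sets was 1.76 to 1.82 on the shAMPKα2 arrays and 2.17 to 2.19 on the shCtrl arrays, and the arrays correlated at 0.990 to 0.997 within a group and at 0.894 to 0.916 between groups. Genes at high control levels mostly went down and those at low levels mostly went up, so each change is set beside that of genes at a like control level. The 14 probe sets of bioB, bioC and bioD, bacterial transcripts added at hybridisation and not made by the cells, were also lower on every shAMPKα2 array, with a mean change of -0.88. They lay between 6.87 and 11.15 on the shAMPKα2 arrays and between 7.99 and 11.85 on the shCtrl arrays, the span in which most of the 10 genes lie. The 4 probe sets of cre, a brighter spike, had 0.11. The part of such a shift in the changes below was not tested. Prkaa2, which encodes the targeted AMPKα2, had a log2 fold change of -0.21 (SE 0.09) that did not pass (limma, adjusted p = 0.0552), so a knockdown was not shown by these values. Prkaa1, which encodes the other catalytic subunit, fell by 2.34 (SE 0.09, limma, adjusted p = 7.04e-09), and by 0.94 with the mean of its 3 probe sets. The other probe sets of Prkaa1 had -1.03 and 0.55, in opposite directions. Of 12 measured markers of tubule epithelium, 1 (Krt8) lay above the median level of all genes on the shCtrl arrays, and Epcam stood at 3.47 ± 0.31 (SD, n = 3) on the shAMPKα2 arrays and 2.97 ± 0.01 on the shCtrl arrays. The files hold no detection calls, so neither presence nor absence was settled. Markers of fibroblasts, endothelium and leukocytes were 0 of 5, 0 of 4 and 1 of 5 above that median. As deposited, 5, 3 and 4 of them rose, as did 10 tubule markers, where 43.6% of all genes rose. After quantile normalization 5, 2 and 4 rose, as did 5 tubule markers. Their gene-by-gene differences from genes of like level had medians of 0.18, 0.06 and 0.20, and those of the tubule markers -0.02. The summed log2 values of the tubule markers were 72.76 to 73.27 on the shAMPKα2 arrays and 65.37 to 66.24 on the shCtrl arrays. Those of the other 3 lists were 26.74 to 27.41, 18.52 to 19.46 and 33.66 to 33.88 on the shAMPKα2 arrays, and 22.73 to 22.91, 16.11 to 17.03 and 31.22 to 31.46 on the shCtrl arrays. Their part in the results below was not tested.

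Uhrf1, Hells and Ezh2 had the deepest falls of the 10 genes with the AMPKα2 hairpin, followed by Eed, Dnmt1 and Ezh1. These 6 fell as deposited and after each of 3 further scalings. Suz12, Dnmt3a and Uhrf2 were lower as deposited, and Dnmt3b was higher, but none of these 4 passed after quantile normalization or cyclic loess. As deposited, 9 of 10 genes fell and 1 rose at an adjusted p of 0.05 (limma), where 41.5% of all genes fell and 43.6% rose. A fall of at least 2-fold was seen in 6 of them, against 18.6% of all genes. In all 10 the groups did not overlap, as in 87.1% of all genes. Their median log2 fold change was -1.41, against 0.05 over all genes. Most of the 10 lie at levels where genes mostly went down, and their differences from genes of like control level had a median of -0.53.

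**Figure D1:**
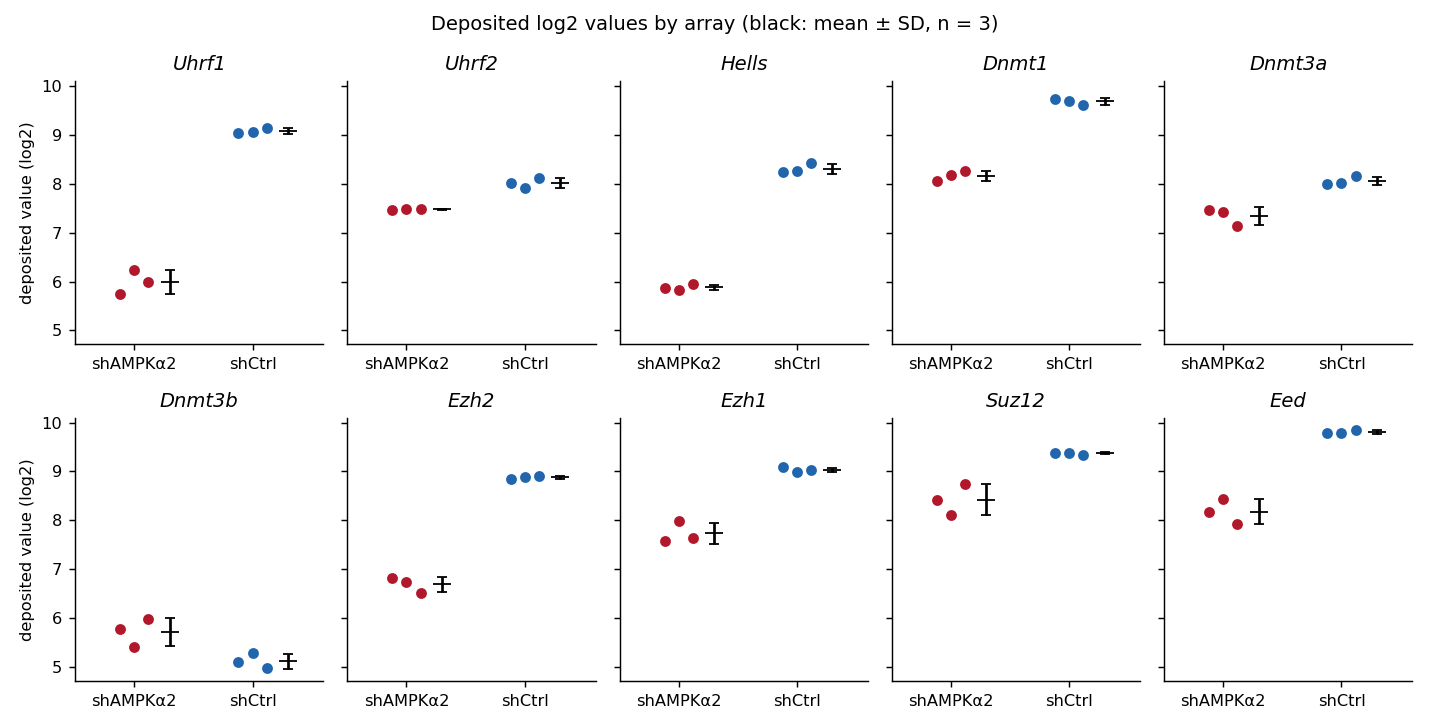
Deposited log2 values (vertical axis) of each gene's main probe set on the 3 shAMPKα2 arrays (red) and the 3 shCtrl arrays (blue), with mean ± SD in black. Each shAMPKα2 array lies below each shCtrl array in 9 genes, most widely for Uhrf1, and above them for Dnmt3b. Heights are not comparable between genes.

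Uhrf1 showed the widest gap. It read 5.75, 6.23 and 5.99 on the shAMPKα2 arrays, against 9.04, 9.05 and 9.14 on the shCtrl arrays. The shAMPKα2 arrays spread over about 0.5 of a log2 unit, while those of the control lay close together, and the gap between the groups was several times wider. Its log2 fold change was -3.09 (SE 0.12, limma, adjusted p = 4.96e-09), an 8.52-fold lower level. Hells, the remodeller, read 5.86, 5.83 and 5.94 on the shAMPKα2 arrays and 8.25, 8.25 and 8.42 on the shCtrl arrays. It was tight in both groups and fell by 2.43 (SE 0.09, limma, adjusted p = 3.92e-09), or 5.39-fold. Dnmt1, the maintenance enzyme itself, read 8.06, 8.17 and 8.25 on the shAMPKα2 arrays, against 9.74, 9.68 and 9.62 on the shCtrl arrays. It fell by 1.52 (SE 0.09, limma, adjusted p = 6.8e-08), or 2.87-fold.

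Uhrf2 encodes the paralog of UHRF1, which shares its domains but does not replace it in maintaining methylation. It read 7.47, 7.48 and 7.48 on the shAMPKα2 arrays and 8.02, 7.91 and 8.11 on the shCtrl arrays. The groups were apart, yet by far less than for Uhrf1: the change was -0.54 (SE 0.08, limma, adjusted p = 0.000127). Neither 0.05 after quantile normalization nor 0.00 with cyclic loess passed.

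The genes of the de novo enzymes changed less than Dnmt1 as deposited. Dnmt3a read 7.45, 7.43 and 7.13 on the shAMPKα2 arrays and 7.99, 8.02 and 8.16 on the shCtrl arrays, a change of -0.72 (SE 0.10, limma, adjusted p = 7.01e-05). Neither -0.17 after quantile normalization nor -0.20 with cyclic loess passed. Dnmt3b was the gene that was higher as deposited, at 5.78, 5.41 and 5.97 on the shAMPKα2 arrays, against 5.10, 5.28 and 4.97 on the shCtrl arrays. The nearest arrays of the groups were separated by little, and the change was 0.60 (SE 0.14, limma, adjusted p = 0.00203). Values of 0.23 after quantile normalization and 0.03 with cyclic loess did not pass. Its control level was among the lower ones, where most genes went up.

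Among the PRC2 genes the catalytic subunit Ezh2 fell most. It read 6.82, 6.73 and 6.52 on the shAMPKα2 arrays and 8.85, 8.88 and 8.91 on the shCtrl arrays. The groups were far apart, with a fall of 2.19 (SE 0.09, limma, adjusted p = 1.07e-08), or 4.56-fold. Eed, which reads the histone mark, stood at 8.17, 8.43 and 7.93 on the shAMPKα2 arrays and 9.78, 9.79 and 9.85 on the shCtrl arrays. It fell by 1.63 (SE 0.12, limma, adjusted p = 3.64e-07), or 3.09-fold. Ezh1, the alternative catalytic subunit, read 7.58, 7.98 and 7.65 on the shAMPKα2 arrays, against 9.08, 8.99 and 9.03 on the shCtrl arrays. It fell too, by 1.30 (SE 0.11, limma, adjusted p = 1.1e-06), so the subunits of dividing and of resting cells were both lower. Suz12, the scaffold, read 8.42, 8.11 and 8.75 on the shAMPKα2 arrays and 9.38, 9.39 and 9.35 on the shCtrl arrays. The shAMPKα2 arrays spread most here, with an SD of 0.32 against 0.02, and the change of -0.94 (SE 0.14, limma, adjusted p = 7.06e-05) did not pass after quantile normalization (-0.19) or cyclic loess (-0.22). The SD was larger on the shAMPKα2 arrays in 8 of the 10 genes and in 73.8% of all genes.

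Set against genes of like control level, the 10 genes parted into 3 kinds. For each, the comparison took the 1335 to 2195 other genes whose shCtrl mean lay within 0.5. Uhrf1 and Hells lay below the 5th percentile of such genes. The change of Uhrf1, -3.09, stood beside a median of -0.87 and a 5th percentile of -2.35, and 1.08% of like-level genes had fallen as far. For Hells, -2.43 stood beside -0.68 and -2.07, and 2.23% had fallen as far. Ezh2 lay just inside, at -2.19 beside a median of -0.83 and a 5th percentile of -2.27, with 5.90% as far down. Eed, Dnmt1 and Ezh1 fell by more than the median of their like-level genes but well within the range. Eed was 0.73 further down (difference -0.73), Dnmt1 0.61 (difference -0.61) and Ezh1 0.44 (difference -0.44), and 18.1%, 22.5% and 28.8% of like-level genes had fallen as far. Suz12, Dnmt3a, Uhrf2 and Dnmt3b followed genes of their level, with differences of -0.06, -0.12, 0.04 and -0.22. The order of the 3 kinds was the same after quantile normalization and cyclic loess, where Uhrf1 and Hells were again the genes below the 5th percentile. These percentiles describe where the genes lie and are not a test.

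**Figure D2:**
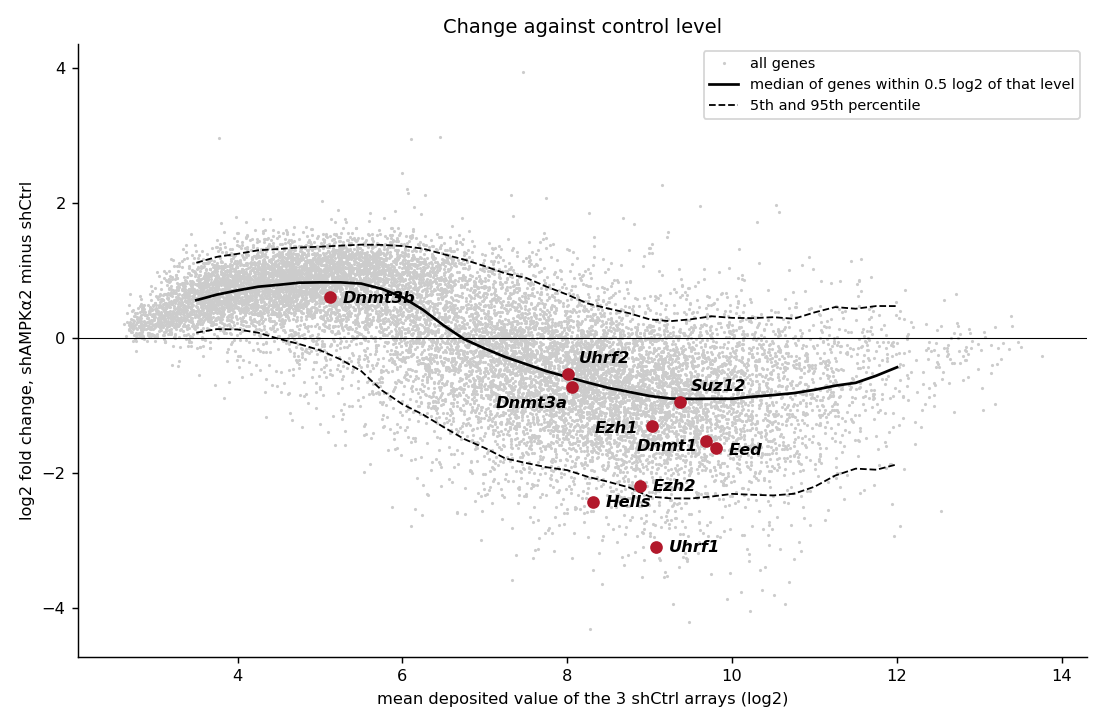
Log2 fold change, shAMPKα2 minus shCtrl (vertical axis), against the mean deposited value of the 3 shCtrl arrays (horizontal axis) for all genes (grey) and the 10 named genes (red). The solid line is the median and the dashed lines the 5th and 95th percentile of genes within 0.5 of each level. Uhrf1 and Hells lie under the lower dashed line, and Suz12 and Uhrf2 lie on the median.

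The scaling set the size of most changes. After quantile normalization 6 of the 10 genes fell and 0 rose, where 28.9% of all genes fell and 43.8% rose. After cyclic loess it was again 6 and 0, beside 31.5% and 40.2% of all genes. The falls of Uhrf1 were -2.83 and -2.63 in those scalings, those of Hells -2.25 and -2.17, and those of Ezh2 -1.73 and -1.64. Dnmt1 had -0.77 and -0.80, Eed -0.90 and -0.90, and Ezh1 -0.59 and -0.61, all smaller than as deposited. Median centring moved all genes down and gave -3.31 for Uhrf1, -2.65 for Hells and -2.40 for Ezh2. For comparison, the median gene had 0.05 in the deposited values, 0.16 with quantile normalization, 0.09 with cyclic loess and -0.17 with median centring.

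**Figure D3:**
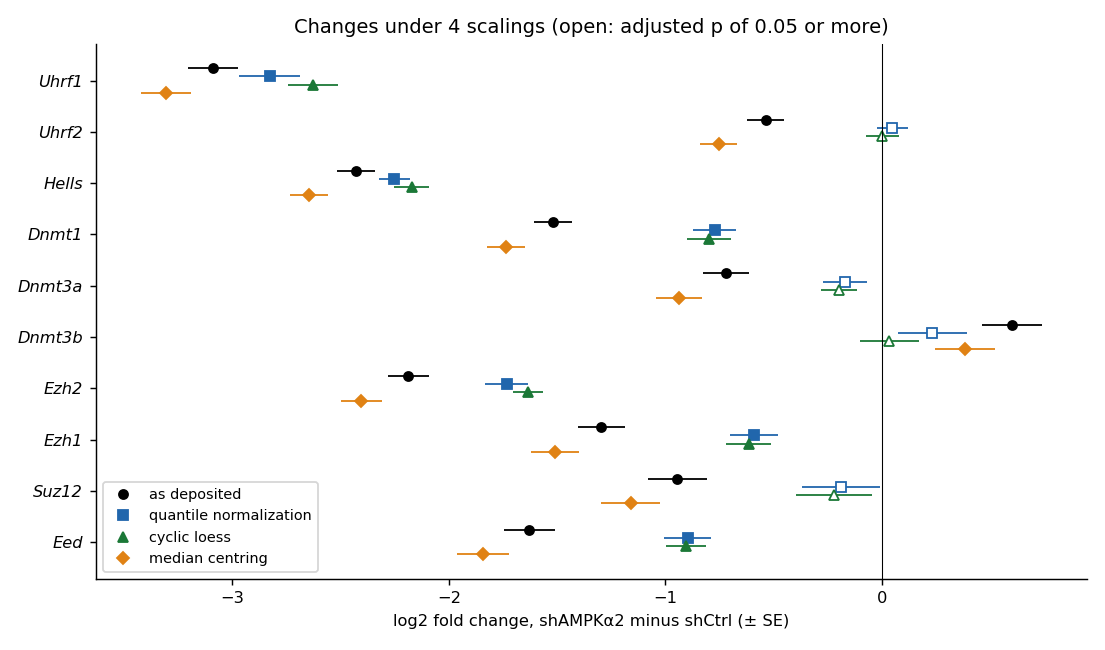
Log2 fold change, shAMPKα2 minus shCtrl, with its SE (horizontal axis) for each gene as deposited and after 3 further scalings. Filled symbols passed an adjusted p of 0.05 in limma and open ones did not. Uhrf1, Hells, Ezh2, Dnmt1, Eed and Ezh1 stay left of 0 and filled in all 4, and the open symbols of the other 4 genes lie near 0.

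Only 3 of the genes were read by more than 1 probe set. The second probe set of Ezh2 gave 5.66, 6.29 and 5.80 on the shAMPKα2 arrays and 8.69, 8.70 and 8.87 on the shCtrl arrays. It fell by 2.84 (SE 0.15, limma over all probe sets, adjusted p = 3.46e-08), so 2 probe sets of Ezh2 reported the fall. The third read 3.95, 3.56 and 3.47 on the shAMPKα2 arrays and 3.59, 3.48 and 3.41 on the shCtrl arrays, near the bottom of the deposited range. Its groups overlapped, and its change of 0.17 did not pass (limma, adjusted p = 0.23). The other probe set of Ezh1 fell by 0.95 (SE 0.11, limma, adjusted p = 9.46e-06). That of Dnmt3a overlapped between groups and had -0.12, which did not pass as deposited (limma, adjusted p = 0.268). It passed once quantile normalized (-0.42) and with cyclic loess (-0.60), so the 2 probe sets of Dnmt3a answered to the scaling in opposite ways. With the mean of probe sets the changes were -1.62 for Ezh2, -1.12 for Ezh1 and -0.42 for Dnmt3a.

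**Figure D4:**
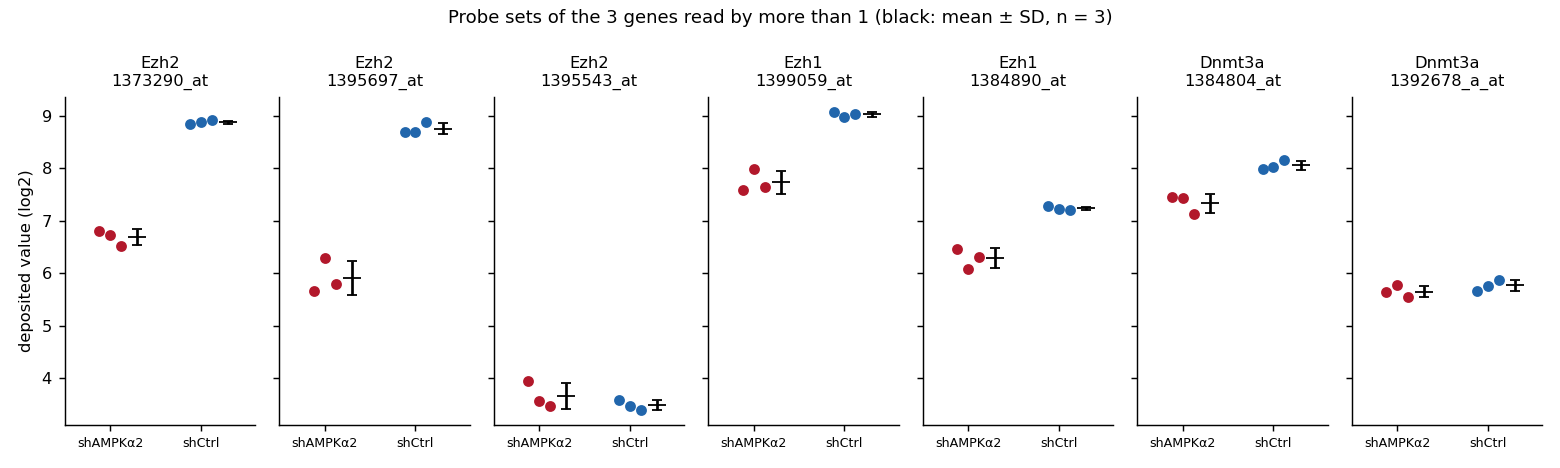
Deposited log2 values (vertical axis) of the 7 probe sets of Ezh2, Ezh1 and Dnmt3a on the 3 shAMPKα2 arrays (red) and the 3 shCtrl arrays (blue), with mean ± SD in black. The 2 brighter probe sets of Ezh2 and both of Ezh1 separate the groups, while the dimmest of Ezh2 and the dimmer of Dnmt3a overlap.

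Related genes changed unequally within the same arrays. The log2 difference of Uhrf1 minus Uhrf2 was -1.718, -1.252 and -1.497 on the shAMPKα2 arrays and 1.020, 1.146 and 1.030 on the shCtrl arrays, a shift of -2.55. The sign of the difference itself has no meaning between probe sets, but its shift says that Uhrf1 went down further than its paralog. Ezh2 minus Ezh1 was -0.76, -1.25 and -1.12 on the shAMPKα2 arrays and -0.23, -0.11 and -0.12 on the shCtrl arrays, a shift of -0.89. Dnmt1 minus Dnmt3a shifted by -0.80 and Dnmt1 minus Dnmt3b by -2.12. Dnmt1 and Dnmt3b lay at very different control levels, where genes of like level had median changes of -0.91 and 0.83, so most of that last shift was that of genes at those levels. Genes at the level of Dnmt3a had a median change of -0.60, also apart from that at Dnmt1. In all 4 pairs the groups did not overlap. Each gave p = 0.1 in an exact 2-sided permutation test over arrays, the smallest that 3 against 3 allow, and an adjusted p of 0.1 over the 4 pairs. The shifts kept their sign after quantile normalization (-2.88, -1.14, -0.60 and -1.0046 in the order given) and cyclic loess (-2.63, -1.02, -0.60 and -0.83). With the mean of probe sets the shift of Ezh2 minus Ezh1 was -0.50, and that of Dnmt1 minus Dnmt3a -1.10.

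Promoter sequences are shown for genes that fell far and for genes that did not, because genes of DNA replication often carry sites for E2F transcription factors ahead of their start. Of the 10 genes, 8 matched the RefSeq promoter table (assembly GRCr8) with 10 start sites, 3 of them for Uhrf1. The 250 bases before each start were searched on both strands for the E2F sequences TTTGGCGC, TTTCCCGC, TTTGCCGC, TTTCGCGC, TTTGGCGG and TTTCCCGG. At least 1 was present at Uhrf1 (the third start site), Hells and Suz12, and in 3.29% of 33469 promoters of that length. In the lines below, on the strand of each gene and 5′ to 3′, capitals mark these sequences. Hells lies at chr1:246113879-246114128 (plus strand) with a match at -29 from the start. Uhrf1 lies at chr9:1222936-1223185 (plus strand) with matches at -193, on the opposite strand, and -99. Suz12 lies at chr10:65464719-65464968 (plus strand) with a match at -199. Uhrf2, which holds none, lies at chr1:237228225-237228474 (plus strand).
Hells: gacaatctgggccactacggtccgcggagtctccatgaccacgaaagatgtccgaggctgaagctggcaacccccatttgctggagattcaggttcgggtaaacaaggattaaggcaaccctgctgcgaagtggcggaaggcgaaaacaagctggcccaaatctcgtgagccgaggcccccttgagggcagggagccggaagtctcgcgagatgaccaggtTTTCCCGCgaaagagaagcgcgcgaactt
Uhrf1: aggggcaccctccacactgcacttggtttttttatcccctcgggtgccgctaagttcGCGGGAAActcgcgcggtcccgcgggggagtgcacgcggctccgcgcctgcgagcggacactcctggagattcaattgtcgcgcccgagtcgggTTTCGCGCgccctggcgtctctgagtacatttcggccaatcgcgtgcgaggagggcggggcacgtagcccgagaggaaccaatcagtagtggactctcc
Suz12: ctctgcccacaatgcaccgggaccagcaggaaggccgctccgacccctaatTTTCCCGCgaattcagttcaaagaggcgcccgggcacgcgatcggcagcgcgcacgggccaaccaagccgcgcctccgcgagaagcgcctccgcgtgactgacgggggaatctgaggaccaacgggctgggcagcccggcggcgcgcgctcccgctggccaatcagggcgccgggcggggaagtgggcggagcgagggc
Uhrf2: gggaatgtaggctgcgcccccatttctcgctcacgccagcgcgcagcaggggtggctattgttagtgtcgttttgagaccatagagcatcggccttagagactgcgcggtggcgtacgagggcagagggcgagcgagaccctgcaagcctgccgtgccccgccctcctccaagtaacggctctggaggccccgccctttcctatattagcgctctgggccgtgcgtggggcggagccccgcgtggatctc

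The matches did not follow the changes gene by gene. Hells and Uhrf1, with the largest falls, held a match, but so did Suz12, whose change was that of genes of its level. Ezh2 and Dnmt1 held none in the 250 bases before the start but 1 each in the 50 bases after it. With those included, a window chosen after the values were seen, 5 of the 10 start sites held a match, in 5 of 8 genes. Over all promoters 4.03% held one, a share not matched for CpG content. At Ezh2 the match stood at position 10 after the start, within chr4:77687156-77687185 (minus strand), and at Dnmt1 at position 26, within chr8:27762798-27762827 (minus strand), on the strand opposite to the gene.
Ezh2: gggctgctgcgTTTGGCGCtcggtccggtc
Dnmt1: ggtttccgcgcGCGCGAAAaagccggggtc
In the 250 bases before the start, the CCAAT box, searched as CCAAT on both strands, was found at Ezh2, Suz12 and Uhrf1, and in 34.0% of all promoters. With the 50 bases after the start it was found at Dnmt1 and Eed as well, and in 37.5% of all promoters. The cell cycle element CHR, searched as TTTGAA and TTCGAA on both strands, was found in the 250 bases at Suz12 and in 17.4% of all promoters, and in the longer window at Suz12 and in 19.7%. The 250 bases held 30 CpG dinucleotides at the third start of Uhrf1, 19 at Hells, 33 at Suz12 and 23 at Uhrf2, against a median of 5 over all promoters. The first and second starts of Uhrf1 held 6 and 11. Dnmt1 held 9, Eed 12, Dnmt3a 18 and Ezh2 23. No match overlapped a match of another of these motifs. A match describes letters and does not show binding.

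Other genes of DNA methylation were lower more often than higher. The list mixes partners of the methylation enzymes, readers of the mark and genes linked to its removal. Of the 24 measured, 16 fell, 3 rose and 5 missed the threshold. Their median was -0.62. Taken gene by gene, the differences from the median of genes of like level had a median of -0.25. After quantile normalization 12 fell and 8 rose, with a median of -0.24. Smchd1, a chromatin protein that keeps the inactive X silent, fell by 1.92 (SE 0.10), and the insulator gene Ctcf fell by 1.79 (SE 0.11). Zbtb33, which encodes the methyl-DNA reader Kaiso, rose by 0.88 (SE 0.12), a rise of 0.42 after quantile normalization, and had a mean of 4.15 on the shCtrl arrays. Gadd45a, a stress gene linked to demethylation, rose by 0.26 (SE 0.09, limma, adjusted p = 0.016), by 0.97 after quantile normalization and by 0.96 after cyclic loess. Its changes after median centring, 0.04, and without shCtrl replicate 1, 0.21, did not pass.

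Some of the 24 genes are named for their roles and were picked after their values were seen. Usp7, which encodes a deubiquitinase that binds UHRF1 and DNMT1, fell by 1.27 (SE 0.12), and by 0.52 after quantile normalization. Cdca7, which encodes the zinc finger protein that recruits HELLS, fell by 1.496 (SE 0.08), and by 0.84 after quantile normalization. Pcna, the replication clamp that holds DNMT1 at the fork, fell by 1.14 (SE 0.08), and by 0.69 after quantile normalization. These 3 fell in all 4 scalings. The TET genes encode enzymes that oxidise methylated cytosine, and they did not move together. Tet3 fell by 1.04 (SE 0.10), and by 0.30 with the mean of its 3 probe sets, of which 1 went the other way. Tet1 rose by 0.45 (SE 0.09), with a mean of 3.88 on the shAMPKα2 arrays and 3.43 on the shCtrl arrays, but neither 0.09 after quantile normalization nor 0.08 with cyclic loess passed. Tet2 had 0.14, which did not pass as deposited, and rose by 0.26 after quantile normalization, while 0.13 with cyclic loess did not pass.

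Genes of the S-adenosylmethionine cycle, which supplies the methyl group, had no shared direction. Of 16 measured, 8 fell, 5 rose and 3 missed the threshold. Their median was -0.17, and after quantile normalization 5 fell and 8 rose. The gene-by-gene differences from genes of like level had a median of 0.10. Ahcyl1, a relative of the enzyme that clears S-adenosylhomocysteine, fell by 1.75 (SE 0.09), and by 1.10 after quantile normalization. Shmt2, a mitochondrial enzyme of the folate cycle, fell by 1.68 (SE 0.09), and by 0.94 after quantile normalization. Mtr, which encodes methionine synthase, rose by 0.94 (SE 0.10). Gnmt, which encodes glycine N-methyltransferase, rose by 1.05 (SE 0.12), and by 0.46 after cyclic loess.

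The PRC2 partners were split. Of 6 measured, 4 fell, 1 rose and 1 did not pass. On the shCtrl arrays 5 of them lay above the median level of all genes. Their median was -0.80, and their gene-by-gene differences from genes of like level had a median of -0.25. Aebp2, an accessory subunit that aids DNA binding, fell by 2.81 (SE 0.10), more than the main probe set of any core subunit, and fell by 1.73 with the mean of its 4 probe sets. Mtf2, which guides PRC2 to CpG islands, fell by 1.22 (SE 0.10), and by 0.49 after quantile normalization. Rbbp7, a histone-binding subunit, fell by 0.85 (SE 0.11), and by 0.35 after quantile normalization. Phf19, a relative of Mtf2, fell by 0.75 (SE 0.18). Phf1, another relative, rose by 0.73 (SE 0.10) and by 1.24 after quantile normalization. Jarid2, a subunit of the alternative form of the complex, had 0.06, which did not pass as deposited, and rose by 0.53 after quantile normalization and by 0.55 with the mean of its 3 probe sets. Kdm6b, an enzyme that removes the H3K27 mark, had 0.09, which did not pass as deposited, and rose by 0.69 after quantile normalization. Rbbp7, Phf19, Jarid2 and Kdm6b were named after their values were seen.

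In PRC1, which binds the H3K27 mark or ubiquitinates histone H2A, and in the deubiquitinase PR-DUB, 22 of 30 genes fell, 5 rose and 3 did not pass. Their median was -0.69, and after quantile normalization 17 fell and 8 rose. Taken gene by gene, the differences from genes of like level had a median of -0.62. Rnf2, which encodes the ubiquitin ligase RING1B, fell by 2.88 (SE 0.14), with 6.120 ± 0.31 (SD, n = 3) on the shAMPKα2 arrays and 9.003 ± 0.09 on the shCtrl arrays, and its other probe set had -3.60. Pcgf5, a subunit of a variant complex, fell by 2.12 (SE 0.08). L3mbtl2, a chromatin reader of another variant complex, rose by 0.97 (SE 0.08), and by 1.66 after quantile normalization, and Cbx2, which binds the H3K27 mark, rose by 0.73 (SE 0.10).

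Of 15 genes of H3K9 methylation, its removal and its readers, such as the HP1 proteins, 14 fell, 0 rose and 1 missed the threshold. Genes of demethylases were among those that fell, and the 1 that missed encodes a demethylase too. The median of the 15 was -0.75, and their gene-by-gene differences from genes of like level had a median of -0.43. After quantile normalization 9 fell and 4 rose. The HP1 genes Cbx1 and Cbx5 had changes of -1.75 (SE 0.11) and -1.61 (SE 0.13), and that of Cbx1 was -1.01 after quantile normalization and -0.94 with the mean of its 3 probe sets. Of 24 genes of H3K27 demethylases, trithorax proteins and related coactivators, which oppose Polycomb, 18 fell, 3 rose and 3 did not pass, and after quantile normalization 11 fell and 9 rose. Of these genes 23 lay above the median level of all genes on the shCtrl arrays. The median of the 24 was -0.67, and their gene-by-gene differences from genes of like level had a median of -0.13. Paxip1 and Setd1b, of H3K4 methyltransferase complexes, had changes of -1.62 (SE 0.08) and -1.54 (SE 0.12). Setd1a, the paralog of Setd1b, rose by 0.52 (SE 0.08), by 1.17 after quantile normalization and by 0.24 with the mean of its 3 probe sets. Arid1b, a remodeller subunit, rose by 1.31 (SE 0.08), but its 6 probe sets went both ways and their mean had -0.0248.

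In lists of known targets of the silencing systems, the differences from genes of like level had small medians. Of 9 measured germline genes that are methylated in somatic cells, 6 rose, 1 fell and 2 did not pass. After cyclic loess 2 rose and 1 fell. The gene that fell as deposited, Rhox5, did not pass after cyclic loess. It had a mean of 11.23 on the shCtrl arrays, and Tex101 had 7.41. Only these 2 lay above the median level of all genes on those arrays. Whether the listed genes were methylated in these cells was not measured. The list had a median of 0.37, and its gene-by-gene differences from genes of like level had a median of -0.09. Tex101, a germ cell surface protein gene, rose by 0.75 (SE 0.09), and by 1.30 after quantile normalization. Asz1, of the piRNA pathway, rose by 0.74 (SE 0.08), with a mean of 4.18 on the shAMPKα2 arrays and 3.44 on the shCtrl arrays. Its rise was 0.35 after quantile normalization. Of 19 imprinted genes 13 rose, 4 fell and 2 missed the threshold. Their gene-by-gene differences from genes of like level had a median of 0.13. H19, a maternally expressed RNA, rose by 1.34 (SE 0.09), and Rasgrf1 rose by 1.39 (SE 0.08). Plagl1 fell by 1.91 (SE 0.08), and Igf2r fell by 1.52 (SE 0.11), and by 0.83 after quantile normalization.

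Of 36 classical Polycomb target genes, 18 rose, 12 fell and 6 missed the threshold. Their gene-by-gene differences from genes of like level had a median of 0.07. Wnt1, a signalling ligand gene, rose by 1.26 (SE 0.09). Pax8, a kidney lineage factor that is also among the tubule markers, rose by 1.20 (SE 0.08), and by 0.73 with the mean of its 2 probe sets. Hoxa9, a homeobox gene, fell by 1.502 (SE 0.08), and by 0.75 after quantile normalization. Gata3, a factor of the nephric duct, fell by 1.49 (SE 0.14). Methylation and histone marks were not measured in these samples.

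**Figure D5:**
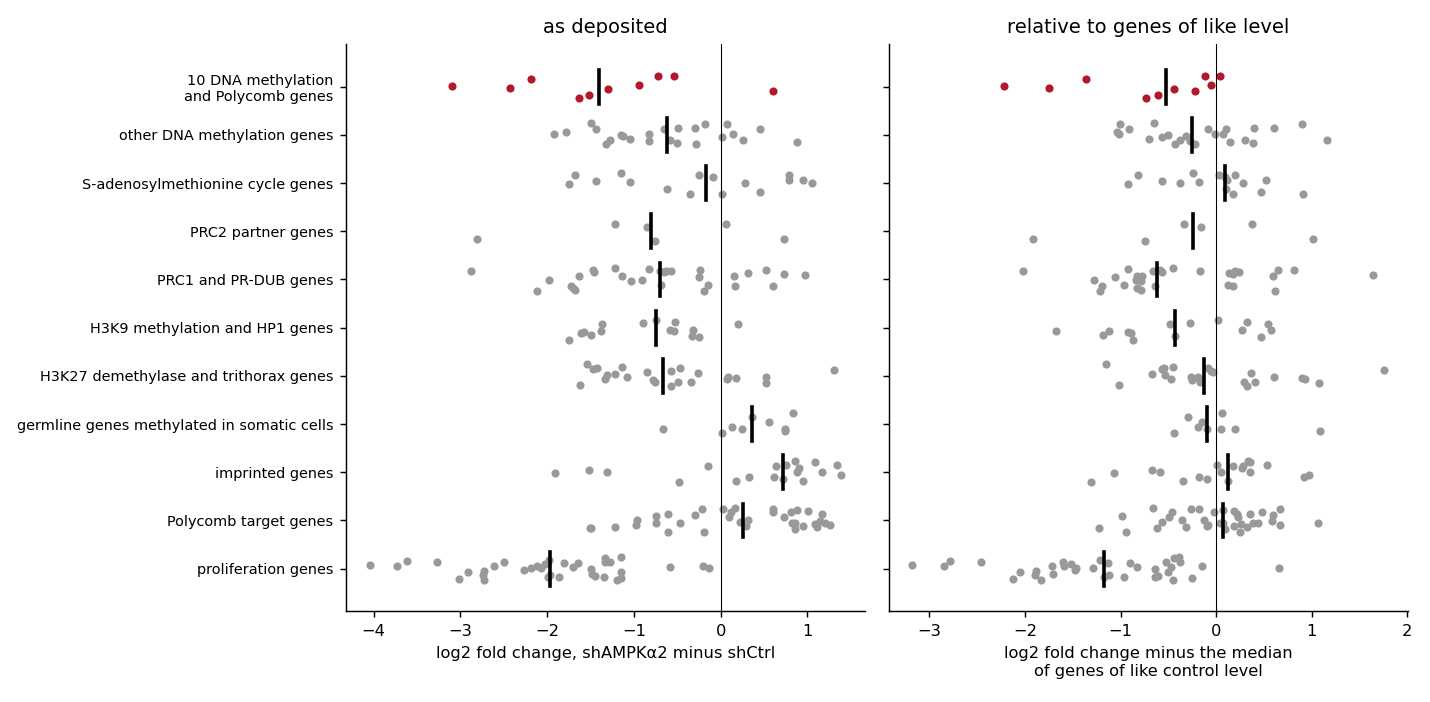
Each point is a gene, in the 10 genes described (red) and in 10 further lists (grey), with the list's median as a black bar. The left panel gives the log2 fold change, shAMPKα2 minus shCtrl, as deposited. The right panel gives the same change minus the median of genes of like control level, where the proliferation genes stay far left (median -1.18), the 10 genes less so (median -0.53), and the target lists centre near 0.

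Genes of proliferation were lower as well. Of 37 measured, 35 fell, 0 rose and 2 missed the threshold. Their median was -1.96 as deposited and -1.45 after quantile normalization. Their summed log2 values were 271.80 to 274.91 on the shAMPKα2 arrays and 346.00 to 346.90 on the shCtrl arrays. Mki67, the proliferation marker, fell by 3.73 (SE 0.11) and Ccna2, the cyclin A2 gene, fell by 4.04 (SE 0.08). Pcna belongs to this list as well as to the methylation list. The part of proliferation in the falls of the 10 genes was not tested. In such bulk samples, fewer cycling cells and less RNA per cell cannot be told apart.

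The genes most like each of the 10 over the 6 arrays were found by the root mean square (RMS) difference of log2 values, each set relative to its own shCtrl mean. For Uhrf1 they were Ppp2r1b, Mid1 and Psat1, with differences of 0.06, 0.11 and 0.13. Ppp2r1b encodes a scaffold of protein phosphatase 2A and Psat1 an enzyme of serine synthesis. For Ezh2 they were Ppp1r2, Pals2 and Trim59 (0.03, 0.05 and 0.05), and for Hells they were Ptprm, Inpp5f and Lims1 (0.05, 0.07 and 0.07). For Dnmt1, Ahctf1 was nearest at 0.03, and for Eed, Gtf3a at 0.03. With 2 groups of 3 arrays, any gene with a like group difference and a small spread scores as near.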

How the data were processed

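Per the labels' protocols, RNA was isolated with Trizol and 10 µg went into one-cycle Affymetrix labelling. The authors deposited log2 expression values for each probe set. Background correction, summarisation and normalization are not given in the sources used here, and neither are scan batches. Of 31099 probe sets, 57 array controls were left out. Of the rest, 20826 had 1 symbol, 436 several and 9780 none; 20758 matched the RefSeq table (GRCr8) by Entrez identifier, with 0 symbols changed. A gene was represented by its brightest probe set on average. The table held 0 further columns of samples.

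Groups were compared with limma 3.58.1 (lmFit and eBayes, R 4.3.3, 2-sided, shAMPKα2 minus shCtrl) over all genes, without a filter or covariate, with Benjamini-Hochberg adjustment and a threshold of 0.05. The p-values measure the spread between these arrays, and their number limits the precision. Permutation tests used scipy 1.17.1. Steps were tested on simulated data. The genes described, the lists and the tests were chosen with earlier results of these data known. Of 247 listed genes, 215 were measured. From each list, at most 2 genes per direction were named. They had the largest changes among those that passed in 1 direction in the deposited, quantile-normalized and cyclic loess values. Genes named otherwise are marked, except Rhox5, Krt8 and Epcam, which were named for their levels. Alternatives were 3 scalings, a filter on level, the mean of probe sets, an intensity trend, array weights, a block on replicate number and leaving out each array. Same-numbered arrays were not treated as pairs in the main fit. Their deviations from the group means correlated at -0.021, 0.014 and -0.098, and the labels do not say whether they were handled together.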

Additional observations from a re-analysis of the deposited data

How the results depend on the processing

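Of the 10 genes described, 10 passed as deposited, after median centring, with array weights, an intensity trend, the mean of probe sets, without the lowest 25% of genes, at a threshold of 0.01 and without each array in turn (10 to 10). With quantile normalization or cyclic loess 6 passed, and the number that rose was 0 in both, against 1 as deposited; these scalings make the distributions of the groups alike, and which scaling is right was not tested. The change of Uhrf2 turned to 0.0481 after quantile normalization and 0.0025 with cyclic loess, and that of Arid1b to -0.0248 with the mean of its probe sets. Without the lowest 25% of genes, which removes low genes, 3317 genes rose in place of 6199, and 34 listed genes rose in place of 54. With the replicate block, 12039 genes passed in place of 12095, and all 10 genes described still passed. Prkaa1, Prkaa2 and the genes named from the lists, cell markers aside, kept their calls under the block, while counts per list moved by at most 1; the differences between related genes were not run with it. Over all genes, leaving out 1 array gave 11573 to 12024. Among named genes of the lists, Gadd45a without shCtrl replicate 1 (0.21) lost its call, and Prkaa2 without shAMPKα2 replicate 2 (-0.27) gained one (limma, adjusted p = 0.0181), as it did after median centring (-0.42), without the lowest 25% of genes and with the mean of probe sets. The wider promoter window moved the genes with an E2F sequence to 5 from 3. The files give no signal over background, so how far the low values of Dnmt3b lie above it is unknown.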
